A study of Mus musculus with 47 samples.

Results

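The lungs described here are the controls of an allergy study: lungs of mice given PBS throughout, taken 72 h after their last challenge, against the same kind of lung taken 24 h after it. They were chosen by array title, as every array that names PBS and either time, and they make up 24 of the 47 arrays in the series, 12 at each time. Per the labels, all of these mice received PBS at sensitization (days 0 and 3) and PBS again into the trachea at challenge (days 10 and 17). Both groups therefore carry the procedure, and the time of killing is the only difference that the labels name. They do not show that nothing else differed. The ragweed lungs used near the end came from mice given ragweed pollen protein on the same days, with alum at sensitization. Whether the PBS mice received alum, and the strain, age and number of the mice, are not given in the sources used here. Total RNA from lung was measured on the Affymetrix murine U74 array set, made of arrays A, B and C, in the first version of the set and again in version 2. Each time has 2 samples, coded 1a and 1b, and each sample was measured on all 6 arrays. The labels do not call 1a and 1b separate animals, so the p-values measure no more than how far these samples scatter, and that scatter could be technical.

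Values are array intensities on the scale that the authors set for version 2, and differences are log2 differences, 72 h minus 24 h, given ± SE with n = 2 samples per group. Intensities under the 40th percentile of a table were raised to that floor (236.7 on A, 355.9 on B and 245.6 on C) before the logarithm, and a difference from a group wholly at the floor is given as "at least". A probe set, the group of short probes that reads 1 transcript, was called where the adjusted p of limma was under 0.05. Version 2 gave the main values, and the first version served as a second measurement under the same 4 sample codes, not as further replicates; the labels do not say whether the same RNA was used for both. In whole lung, fewer cells of a type and less RNA per cell cannot be told apart. Defining lung genes were bright in all 4 samples: Sftpb, a surfactant protein of alveolar type II cells, lay between 13470 and 16130, and Ager, a receptor of alveolar type I cells, between 13270 and 16820.

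The arrays differed in ways that bear on how firmly values can be read. The version 2 PBS arrays had been scaled to a trimmed mean near 800, while those of the first version ran from 80.64 to 376.5 and were rescaled. The median SE of a log2 difference was 0.22 on version 2 A, 0.34 on B and 0.49 on C, so smaller differences could be called on A than on C. On version 2 A the ratio of the 3' to the 5' beta-actin probe set, a sign of RNA length and probe response, was 0.535 and 0.437 at 24 h and 0.189 and 0.198 at 72 h. On B it was higher at 72 h (0.708 and 0.465 against 0.919 and 0.813) and on C lower (1.08 and 0.993 against 0.869 and 0.861), and the Gapdh ratio was lower at 72 h on all 3 arrays. These ratios therefore moved with time on version 2, and their part in the results was not tested. On first-version A the actin ratio was 0.947 and 0.914 at 24 h and 0.798 and 0.968 at 72 h, and the groups overlapped.

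On version 2 named genes of the stress responses and of simple epithelium were lower in control lungs at 72 h than at 24 h, and genes of squamous epithelium, airway secretory cells and striated muscle were higher. Calls were made for 66 of the 22999 probe sets that could be tested (0.287%). Of these, 39 were higher (0.170%) and 27 lower (0.117%) at 72 h, and 2344 had an unadjusted p under 0.05. Read by 1 probe set per gene, they gave 51 genes (0.416% of those tested), 29 higher (0.236% of 12267 genes tested) and 22 lower (0.179%). Ada, Snx1, Tmem129 and Tut7 (higher) and Nploc4 and Psmb5 (lower) each had a called probe set too. It was not the one read for the gene, so these genes are outside the 51. The values of the 2 times did not overlap in any of the 51, which largely follows from choosing them by p on these same values. Over all genes 21.8% lay wholly higher and 22.4% wholly lower at 72 h. The number called rested on single arrays: it was 18 without PBS 24 h 1a, 11 without PBS 24 h 1b, 91 without PBS 72 h 1a, 30 without PBS 72 h 1b, and 37 and 38 without either ragweed 72 h sample, whose spread the fit also uses. It was 28 with the PBS arrays alone in the fit. All 51 genes kept their direction in every alternative that measured them. Their times did not overlap, so leaving out 1 sample could not have reversed a direction, and those alternatives do not test it.

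The first-version arrays repeated these directions. Of the 51 called genes, 40 were tested there through the same probe set, all 40 moved the same way and 20 were called, 11 higher and 9 lower. Further probe sets of a gene did not always follow: of 51 called genes 24 had others tested on version 2, and in 9 of them (Apoe, Asns, Bphl, Gclm, Lgals3, Per2, Psat1, Serpinb3a and Slc35a4) at least 1 had the opposite sign, without a call. Over all genes measured on both versions, 57.8% had the same sign. The first version by itself called 83 of 17598 probe sets (0.472%), 53 higher (0.301%) and 30 lower (0.170%). Counted as genes, 0.363% were called higher there and 0.239% lower. Across all probe sets the differences on both versions correlated with r = 0.41 on A, 0.16 on B and 0.06 on C, a description over probe sets that share samples and are not independent replicates.

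**Figure D1:**
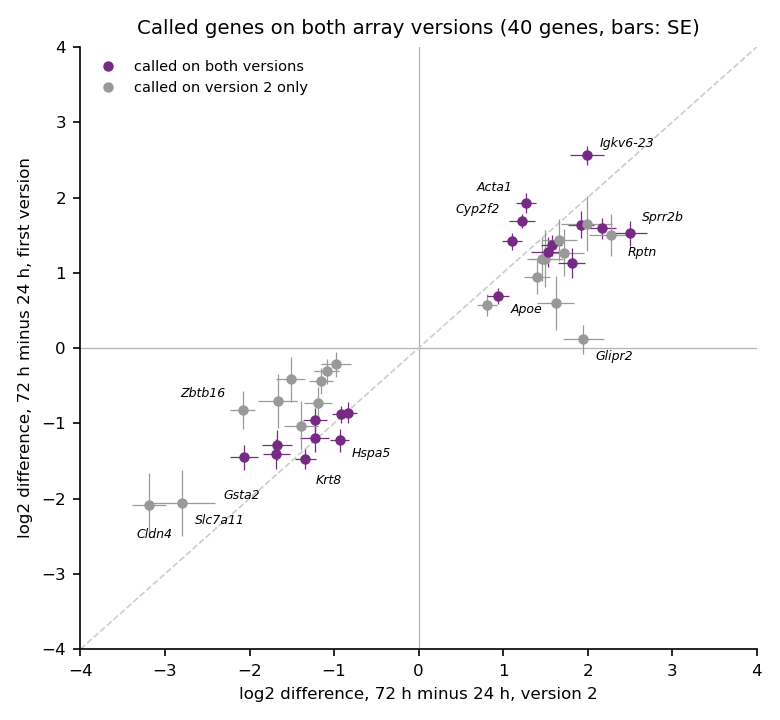
Log2 difference between PBS lungs at 72 h and 24 h on version 2 (x axis) and on the first version (y axis) for the 40 called genes measured on both, with SE bars (n = 2 samples per group). The points lie in the lower left and upper right, so every gene has the same sign on both versions. The dashed line marks equality, and Glipr2 is near 0 on the first version.

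Cells meet oxidants and reactive chemicals with the transcription factor NRF2, which binds antioxidant response elements and switches on enzymes that make and use glutathione. Shortage of amino acids, or of folding capacity in the endoplasmic reticulum, acts through a related arm in which ATF4 drives amino acid import, serine and asparagine synthesis and chaperone genes through C/EBP-ATF elements. The cystine importer Slc7a11 belongs to both, since cystine feeds glutathione. In airway and alveolus these programs are known responses of the epithelium to inhaled or instilled material.

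Glutathione genes were lower at 72 h. Gclc, the catalytic subunit of glutamate-cysteine ligase, which makes the first and limiting step of glutathione synthesis, read 3270 and 2901 at 24 h and 1078 and 852.2 at 72 h. Both late samples lay far below both early ones, 3.21-fold on average (-1.68 ± 0.16, adjusted p = 0.00711). Gclm, the modifier subunit of the same enzyme, read 2562 and 2697 against 892.5 and 601.4 (-1.84 ± 0.21, adjusted p = 0.0175). Gsta2, an alpha-class glutathione transferase, fell from 2897 and 2639 to 721.6 and 607.4 (-2.06 ± 0.17, adjusted p = 0.00362). Gpx2, the glutathione peroxidase of epithelial cells, went from 2676 and 3677 to 927.0 and 1042 (-1.67 ± 0.18, adjusted p = 0.0144). The falls thus ran through enzymes of synthesis, conjugation and peroxide reduction, and early and late samples stayed apart in each. Akr1b8, an aldo-keto reductase that detoxifies aldehydes, fell by 1.23 on the log2 scale and Blvrb, a flavin and biliverdin reductase, by 1.52 (adjusted p = 0.0384 and 0.0374). Gsta2, Gclc, Gpx2 and Akr1b8 were called on the first version too, at -1.45, -1.41, -1.29 and -1.20, and the probe sets read for Gclm and Blvrb were not among those compared there. Gclm has 2 further probe sets on B that were not called: 107895_at was at -0.74 (adjusted p = 0.533; first version -0.65) and 112204_at, near the floor, at 0.07 (adjusted p = 0.941; first version 0.43), so its fall rests on the A probe set. A second Blvrb probe set, 167261_f_at, was called lower too (-1.56, adjusted p = 0.0301).

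Of 29 genes listed as NRF2 targets, 25 were measured, and 4 were called lower and none higher (all genes: 0.179% and 0.236%). The median difference of the 25 was -0.55 against -0.0048 over all genes. The 4 were Gclc, Gclm, Gsta2 and Slc7a11. Values of 17 of the 25 lay wholly lower at 72 h and of 5 wholly higher, beside 22.4% and 21.8% of all genes. Members of the thioredoxin and glutathione cycles that were not called had values on the same side: Txnrd1, thioredoxin reductase, read 2004 and 2422 against 1036 and 1099 (-1.05 ± 0.17, adjusted p = 0.0678), and Gsr, glutathione reductase, 2472 and 2196 against 1407 and 1088 (-0.91 ± 0.18, adjusted p = 0.123). Hmox1, the haem-degrading enzyme of this program, was on the other side at 877.9 and 890.3 against 1024 and 2083 (0.72 ± 0.29, adjusted p = 0.447). Me1, malic enzyme, was at 0.38 ± 0.18 (adjusted p = 0.541). For Srxn1, which repairs peroxiredoxins, 2 probe sets disagreed: 161090_i_at was at -0.23 ± 0.38 (adjusted p = 0.902), while 102780_at was at -1.33 ± 0.25 (adjusted p = 0.116) and was called on the first version (-1.77, adjusted p = 0.0201). On the first version 18 listed genes were measured, 3 were called lower and 17 had the sign they had on version 2.

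Genes of the amino acid response were lower at 72 h as well. Slc7a11, the cystine importer, read 2367 and 2579 at 24 h and 316.0 and 248.0 at 72 h, below the floor in both late samples, a fall of at least 6.94-fold (at least 2.79 ± 0.38 on the log2 scale, adjusted p = 0.0100). Nupr1, a small stress-induced nuclear protein, was among the brighter probe sets at 10810 and 9574 and dropped to 1697 and 1176 (-2.85 ± 0.18, adjusted p = 0.00233). Nupr1 was 7.20-fold lower. Psat1, of serine synthesis, went from 1494 and 1381 to 514.2 and 585.0 (-1.39 ± 0.20, adjusted p = 0.0470). Mthfd2, of mitochondrial folate metabolism, went from 2622 and 2253 to 813.7 and 888.1 (-1.51 ± 0.17, adjusted p = 0.0147). Asns, asparagine synthetase, went from 4299 and 3830 to 1805 and 1847 (-1.15 ± 0.14, adjusted p = 0.0222). None of the 5 overlapped between the times, which held for all 51 called genes.

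A list of 38 amino acid response genes, assembled after these values had been seen and given without a test, had 34 measured members. Of these, 5 were called lower and none higher, the median was -0.61, and 27 lay wholly lower at 72 h (all genes: 0.179% called lower, 22.4% wholly lower). For Asns and Psat1 further probe sets gave values of either sign without a call (-1.06 and 0.34 for Asns, 0.18 and 0.19 for Psat1). Aminoacyl-tRNA synthetases made up many of the rest, among them Aars at 1021 and 773.4 against 660.6 and 523.9 (-0.60 ± 0.25, adjusted p = 0.463). The regulators were not called: Atf4, the central transcription factor, was at -0.44 ± 0.11 (adjusted p = 0.195), Atf3 at -1.02 ± 0.20 (adjusted p = 0.125) and Trib3, a pseudokinase that feeds back on ATF4, at -1.15 ± 0.23 (adjusted p = 0.125). The summed intensity of the 34 genes was 66068 and 66797 in the 24 h samples and 38242 and 38238 in the 72 h samples. On the first version 29 were measured, 28 had the same sign, the median was -0.42 and none was called.

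The promoters of 4 of these genes are shown because the amino acid response and NRF2 are each defined by a short element near the start site. They run from 250 bases before to 50 bases after the RefSeq start (GRCm38.p6), 5' to 3' along the gene. Capitals mark matches, on either strand, to the C/EBP-ATF core TGATGNAA (in Slc7a11, Nupr1 and the second run in Asns) or to the antioxidant response element core TGACNNNGC (in Gclm and the first run in Asns).
Slc7a11, chr3:50443564-50443863, minus strand: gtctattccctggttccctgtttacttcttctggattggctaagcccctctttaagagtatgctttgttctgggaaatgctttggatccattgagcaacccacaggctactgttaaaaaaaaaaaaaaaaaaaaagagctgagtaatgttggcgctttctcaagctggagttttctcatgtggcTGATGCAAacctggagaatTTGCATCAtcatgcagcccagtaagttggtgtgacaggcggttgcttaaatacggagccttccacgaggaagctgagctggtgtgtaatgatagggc
Nupr1, chr7:126625421-126625720, minus strand: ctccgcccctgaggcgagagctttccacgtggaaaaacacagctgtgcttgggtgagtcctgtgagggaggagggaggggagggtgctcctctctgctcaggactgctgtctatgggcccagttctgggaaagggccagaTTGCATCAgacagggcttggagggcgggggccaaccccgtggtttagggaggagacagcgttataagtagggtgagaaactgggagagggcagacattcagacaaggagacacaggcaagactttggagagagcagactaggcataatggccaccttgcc
Asns, chr6:7693160-7693459, minus strand: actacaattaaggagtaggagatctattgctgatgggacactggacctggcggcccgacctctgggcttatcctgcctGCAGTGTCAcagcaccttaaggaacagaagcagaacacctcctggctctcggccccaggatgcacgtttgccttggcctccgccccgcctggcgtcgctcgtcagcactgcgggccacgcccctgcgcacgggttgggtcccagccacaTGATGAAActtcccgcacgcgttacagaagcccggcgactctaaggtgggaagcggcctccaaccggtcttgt
Gclm, chr3:122245307-122245606, plus strand: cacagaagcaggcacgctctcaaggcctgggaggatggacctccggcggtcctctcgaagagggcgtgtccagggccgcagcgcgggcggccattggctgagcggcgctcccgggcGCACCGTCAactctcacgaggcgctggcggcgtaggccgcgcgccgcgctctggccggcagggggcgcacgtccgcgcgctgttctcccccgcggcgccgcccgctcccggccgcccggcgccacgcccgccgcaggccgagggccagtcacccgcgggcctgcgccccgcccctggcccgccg

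Slc7a11 held 2 C/EBP-ATF cores in opposite orientation, beginning at -66 and -47 from the start site, Nupr1 had 1 at -110 and Asns 1 at -23. Of the 38 amino acid response genes 32 had a promoter in the RefSeq table, and 13 of them (40.6%) held this core, against 4.51% of 27025 genes. Among the 22 genes called lower, 17 had a promoter and 3 held it (17.6%). Of the 29 called higher, 22 had a promoter and 1 held it (4.55%). The antioxidant core stood in 8 of 24 NRF2 target promoters (33.3%), against 14% of all genes. It stood in 3 of the 17 promoters of genes called lower (17.6%, near the share of all genes), those of Asns, Cry1 and Gclm. Among the NRF2 targets called lower a match was found for Gclm alone, and the Slc7a11 promoter shown held none. The promoter of Gclm had it at -134. The 2 cores did not overlap each other in the promoters shown. These are matches of letters in a 300-base window, without a measurement of binding.

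Among chaperones of the endoplasmic reticulum the chief member fell. Hspa5 (BiP) read 9649 and 9050 at 24 h and 4940 and 4838 at 72 h, 1.91-fold lower (-0.93 ± 0.12, adjusted p = 0.0244), and was called on the first version (-1.23 ± 0.15, adjusted p = 0.00720). Of 20 listed genes measured, 2 were called lower, Hspa5 and Asns, and none higher (all genes: 0.179% and 0.236%). The median was -0.41, and 12 lay wholly lower and 1 wholly higher (all genes: 22.4% and 21.8%). Pdia4, a disulfide isomerase, was at -0.97 ± 0.16 (adjusted p = 0.0798) and Manf, a secreted stress protein, at -0.87 ± 0.17 (adjusted p = 0.123) with a call on the first version (-1.41, adjusted p = 0.00555). Krtcap2, a subunit of the enzyme that adds N-glycans to new proteins, fell on both versions (-0.84 ± 0.11 and -0.86 ± 0.14, adjusted p = 0.0374 and 0.0360). Cytosolic and mitochondrial heat shock proteins had no call among 22 measured, with 10 wholly lower and 2 wholly higher and a median of -0.14. Hsph1, a cytosolic co-chaperone, was at -0.96 ± 0.18 (adjusted p = 0.115), and Hspd1, the mitochondrial chaperonin, at -0.29 ± 0.14 (adjusted p = 0.538) but called at -1.03 on the first version (adjusted p = 0.0388). Of 31 proteasome subunits measured, each by 1 probe set, none was called and the median was -0.24. In this list 19 lay wholly lower and 1 wholly higher (all genes: 22.4% and 21.8%). A further Psmb5 probe set, 109821_f_at on B, was called lower (-1.11 ± 0.19, adjusted p = 0.0335). The first version gave -0.57 for it without a call (adjusted p = 0.277). Of 3 Psmb5 probe sets tested, 2 were lower and 1 higher. Psmb4, a core subunit, read 7186 and 7796 against 5281 and 5066 (-0.53 ± 0.11, adjusted p = 0.156).

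Genes of simple, barrier-forming epithelium also fell. Cldn4, a tight junction protein of airway and alveolar epithelium, had the largest fall among called genes that were measured at both times: 4023 and 3688 at 24 h and 474.0 and 373.7 at 72 h, 9.15-fold (-3.19 ± 0.20, adjusted p = 0.00233). The first version gave -2.08 ± 0.43 (adjusted p = 0.108). Krt8, a keratin of simple epithelium, read 8970 and 8274 against 3529 and 3290 (-1.34 ± 0.13, adjusted p = 0.00711), and its relative Krt19 7105 and 7731 against 3891 and 3974 (-0.91 ± 0.11, adjusted p = 0.0217). Both were called on the first version as well (-1.47 and -0.88). Krt18, the usual partner of Krt8, was at -0.33 ± 0.12 (adjusted p = 0.371), and Krt7 at -0.14 ± 0.13 (adjusted p = 0.781). The 8 listed simple-epithelial genes thus did not move as a block: 2 were called lower and none higher (all genes: 0.179% and 0.236%). Lgals3, galectin-3 of epithelium and macrophages, read 3958 and 4809 against 1993 and 1757 and was called on both versions (-1.22 ± 0.14 and -0.96 ± 0.16). Cxcl17, a chemokine of mucosal epithelium, fell by 0.98 on the log2 scale (adjusted p = 0.0443), but was at -0.22 ± 0.17 on the first version (adjusted p = 0.781). Its brighter C probe set, 169733_at, read 9278 and 10950 against 7654 and 9319, with overlapping times (-0.26, adjusted p = 0.732).

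Among 14 measured claudins and junction proteins, a list assembled after the values were seen, Cldn4 was the only call (all genes: 0.179% called lower). The median was -0.0084. Cldn7, a further epithelial claudin, read 1671 and 1906 against 714.8 and 691.3 (-1.34 ± 0.22, adjusted p = 0.0688), and Cldn3 was at -0.92 ± 0.19 (adjusted p = 0.147). Cldn18, the claudin of alveolar epithelium, was at 0.01 ± 0.32 (adjusted p = 0.995), and Cldn5, that of endothelium, at 0.03 ± 0.12 (adjusted p = 0.963). Alveolar markers had no calls: 7 of 12 type II and 6 of 10 type I genes lay wholly lower at 72 h (all genes: 22.4%), with medians of -0.15 and -0.29. On the first version 2 of 8 type II and 2 of 8 type I genes lay wholly lower, and 1 of each list wholly higher. Over all genes there 1760 of 8916 lay wholly lower. Sftpc, the surfactant protein unique to type II cells, read 5661 and 4202 against 1263 and 566.5 on version 2 (-2.53 ± 0.49, adjusted p = 0.123) but was at -0.26 ± 0.12 (adjusted p = 0.580) on the first version. The 50 brightest probe sets of first-version A had a median of -0.13 on version 2 A, with 41 of 50 lower at 72 h, and of -0.03 on the first version, with 26 of 50 lower, so the brightest genes as a whole read lower at 72 h on version 2.

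In the circadian clock Per2 and Cry1 were called lower, and among glucocorticoid targets Zbtb16 was. Per2, a repressor arm of the clock, read 891.1 and 908.9 at 24 h and 288.6 and 278.3 at 72 h (-1.67 ± 0.23, adjusted p = 0.0374). Cry1, its partner in that repression, read 1885 and 1847 against 825.5 and 809.5 (-1.19 ± 0.16, adjusted p = 0.0374). In these probe sets replicates lay within a few percent of each other, and the times were well apart. A second Per2 probe set, 168764_at, read 1949 and 1172 against 1600 and 1841, with overlapping times (0.18, adjusted p = 0.911). First-version values were -0.71 and -0.72, without a call (adjusted p = 0.619 and 0.287). Of 19 clock genes measured, 2 were called lower and none higher (all genes: 0.179% and 0.236%). Arntl, the activator that PER and CRY proteins repress, was below the floor at 24 h (173.5 and 138.8) and above it at 72 h (367.3 and 436.8), at least 0.76 ± 0.20 higher (adjusted p = 0.240). Nr1d1, a repressor of Arntl, was at 0.88 ± 0.23 (adjusted p = 0.226). The labels give no hour of day for the killing.

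Zbtb16, a zinc finger transcription factor that glucocorticoids induce strongly, read 4148 and 4115 against 1058 and 902.4, a 4.23-fold fall (-2.08 ± 0.15, adjusted p = 0.00297). The first version gave -0.82 ± 0.25 (adjusted p = 0.329). It was the only call among 13 measured glucocorticoid targets and metallothioneins, of which 6 lay wholly lower and none wholly higher. Over all genes 0.179% were called lower, 22.4% lay wholly lower and 21.8% wholly higher. Fkbp5, a co-chaperone of the glucocorticoid receptor, read 1229 and 1262 against 816.0 and 893.7 (-0.54 ± 0.21, adjusted p = 0.425).

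**Figure D2:**
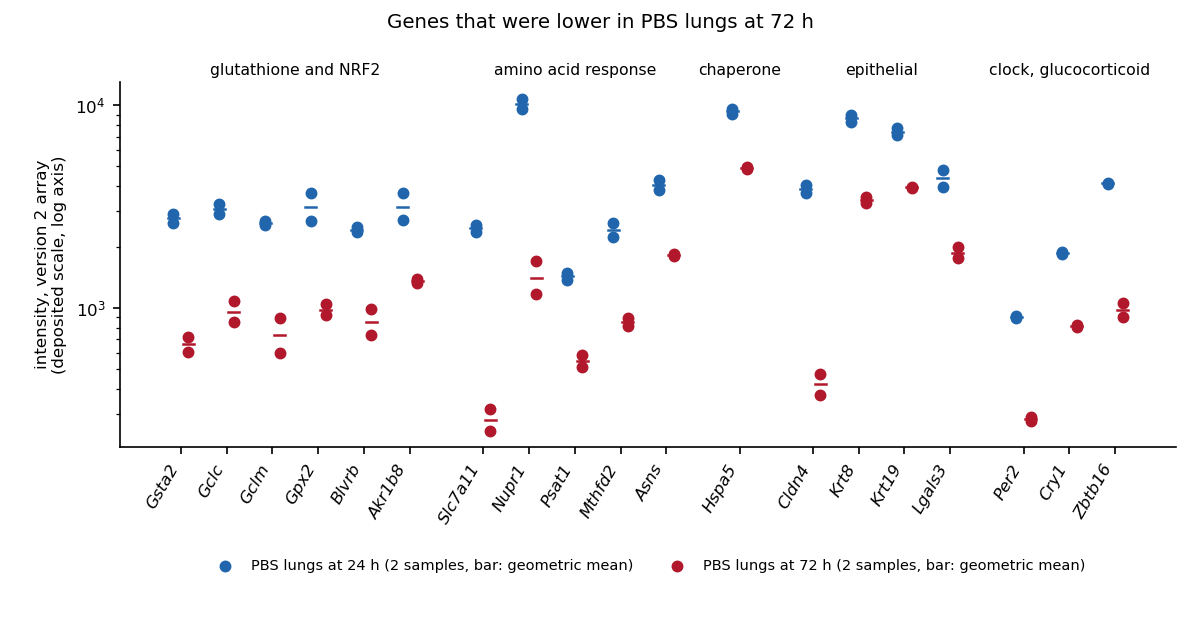
Version 2 intensity (log axis) of 19 genes called lower at 72 h, in the 2 PBS samples of 24 h (blue) and the 2 of 72 h (red), with the geometric mean of each pair as a bar. In each gene both late samples lie below both early samples. The widest gaps are those of Cldn4, Nupr1 and Slc7a11, and the late values of Slc7a11 lie under the floor of the B array.

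Stratified squamous epithelium, the lining of mouth, oesophagus and skin, replaces simple keratins with Krt4 and Krt13 or with epidermal keratins and then cross-links small proline-rich (Sprr), late cornified envelope (Lce) and related proteins into a tough shell, the cornified envelope. Healthy lower airway has little of it, although some Sprr genes also respond to injury in airway cells.

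Genes of that shell rose. Sprr2b read 1618 and 1258 at 24 h and 6600 and 9829 at 72 h, 5.64-fold (2.50 ± 0.20, adjusted p = 0.00362). Sprr3 read 1190 and 1042 against 4186 and 3658 (1.81 ± 0.16, adjusted p = 0.00599). Crct1, a cysteine-rich protein of the same gene cluster, read 845.5 and 1031 against 3348 and 3730 (1.92 ± 0.16, adjusted p = 0.00362), and Krtdap, a peptide of differentiating keratinocytes, 1885 and 2086 against 5674 and 6180 (1.58 ± 0.12, adjusted p = 0.00362). All 4 were called on the first version, at 1.53, 1.13, 1.64 and 1.36. Rptn, repetin of the envelope, rose by 2.28 ± 0.26, Lce3a by 2.22 ± 0.31 and Cysrt1 by at least 1.99 ± 0.30 (adjusted p = 0.0171, 0.0222 and 0.0172). Sprr2i rose by 1.40 ± 0.16 and Fam25c by 1.45 ± 0.21 (adjusted p = 0.0158 and 0.0144). Probe sets of Sprr and Lce families can share sequence, so that a rise of one member may be read by the probes of another. Probe sets 101024_i_at and 101025_f_at, matched to Sprr2a1, Sprr2a2 and Sprr2a3 together, gave 2.82 and 2.82, and 113992_at, matched to the Lce3 genes together, gave 2.28.

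Of 24 measured cornified envelope genes 9 were called higher and none lower, against 0.236% and 0.179% of all genes, and the median was 0.89. Their summed intensity was 43826 and 45772 at 24 h and 76860 and 80974 at 72 h. Not every member followed: 16 lay wholly higher and 3 wholly lower (all genes: 21.8% and 22.4%). The unadjusted limma p was under 0.05 for 15 that were higher and 2 that were lower, and the lowest difference was -0.77. Sprr1a, an early envelope gene, was at -0.23 ± 0.23 (adjusted p = 0.808), Ivl, involucrin, at -0.70 ± 0.60 (adjusted p = 0.769) and Evpl, envoplakin, at -0.25 ± 0.49 (adjusted p = 0.915). On the first-version arrays 15 were measured, 4 were called higher and 14 had the same sign. Serpinb3a, a protease inhibitor of squamous cells outside the list, rose by 1.66 ± 0.21 (adjusted p = 0.0244).

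Keratins of stratified lining rose as well. Krt13, the keratin of non-cornified stratified lining, read 1146 and 1019 at 24 h and 4298 and 5526 at 72 h (2.17 ± 0.16, adjusted p = 0.00297). Both of its A probe sets and its B probe set were called, and the first version gave 1.59 ± 0.14 (adjusted p = 0.00118). Its partner Krt4 was already bright at 24 h, with 8627 and 7267 against 14540 and 13500 (0.82 ± 0.14, adjusted p = 0.0740), and was called on the first version at 1.75 ± 0.13 (adjusted p = 5.94e-04). Ly6d, a surface protein of squamous cells, rose by 1.39 ± 0.18 (adjusted p = 0.0328). Perp, a desmosomal protein, was at 0.99 ± 0.21 (adjusted p = 0.157) and Pkp1, a desmosomal plaque protein, at 1.21 ± 0.32 (adjusted p = 0.236). Krt14, the epidermal basal keratin, read 262.6 and 359.8 against 305.0 and 46.92, close to the floor or below it. Of 20 squamous keratins and desmosomal genes measured, 2 were called higher and none lower (all genes: 0.236% and 0.179%). In this list 13 lay wholly higher and 1 wholly lower (all genes: 21.8% and 22.4%), and the median was 0.56. The first version was less uniform for this list: of 14 measured, 2 were called higher, 6 lay wholly higher and 3 wholly lower, and the median was 0.09.

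Striated muscle and fat, tissues outside the alveoli that lie next to the lung or in the walls of its great veins, had higher readings beside these. Acta1, skeletal muscle actin, read 4594 and 5078 against 11030 and 12390 (1.28 ± 0.12, adjusted p = 0.00711) and was called on the first version (1.93 ± 0.13, adjusted p = 2.40e-04). Atp2a1, the calcium pump of fast muscle, read 608.6 and 439.6 against 1443 and 1476 (1.50 ± 0.22, adjusted p = 0.0470). Actc1, cardiac actin, read 3421 and 3122 against 5522 and 5952 (0.81 ± 0.12, adjusted p = 0.0467), and Myl3, a ventricular and slow-muscle myosin light chain, 345.7 and 414.1 against 1112 and 1398 (1.72 ± 0.23, adjusted p = 0.0374). Of 17 skeletal genes measured 2 were called higher and 15 lay wholly higher. Of 16 cardiac genes 2 were called higher and 13 lay wholly higher. Over all genes 0.236% were called higher and 21.8% lay wholly higher. None in either list was called lower or lay wholly lower on version 2. On the first version 15 skeletal genes were measured: 4 were called higher, 9 lay wholly higher, 1 wholly lower, and 11 had the same sign. Of 13 cardiac genes measured there none was called, 12 lay wholly higher and 12 had the same sign. Over all genes there 0.363% were called higher, and 1674 of 8916 lay wholly higher and 1760 wholly lower. The atrial hormone Nppa read 750.8 and 916.7 against 1714 and 3272 (1.51 ± 0.38, adjusted p = 0.203) and the atrial light chain Myl7 3068 and 3161 against 4001 and 7652 (0.83 ± 0.27, adjusted p = 0.330).

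Several of these lists leaned on the sample PBS 72 h 1b. The summed intensity of the 16 cardiac genes was 18624 and 19451 at 24 h and 27874 (1a) and 46095 (1b) at 72 h, and 15 of 16 were higher in 1b than in 1a. For 11 fat genes the sums were 16959 and 21373 at 24 h and 21917 and 37587 at 72 h, all 11 were higher in 1b, and the list median of 0.93 was 0.15 without that sample. Ucp1, the uncoupling protein of brown fat, showed this most, below the floor at 24 h (149.4 and 52.26) with 715.6 and 3764 at 72 h. Adipoq, a fat hormone, read 728.2 and 805.4 against 1208 and 3741. Neither was called on version 2 (adjusted p = 0.178 and 0.295), while both were called on the first version (2.24 and 1.50). The skeletal median of 0.82 was 0.75 without 1b, and the cornified envelope median of 0.89 was 0.96, so those lists did not rest on it. The part of adjoining tissue in the squamous and secretory rises was not tested.

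**Figure D3:**
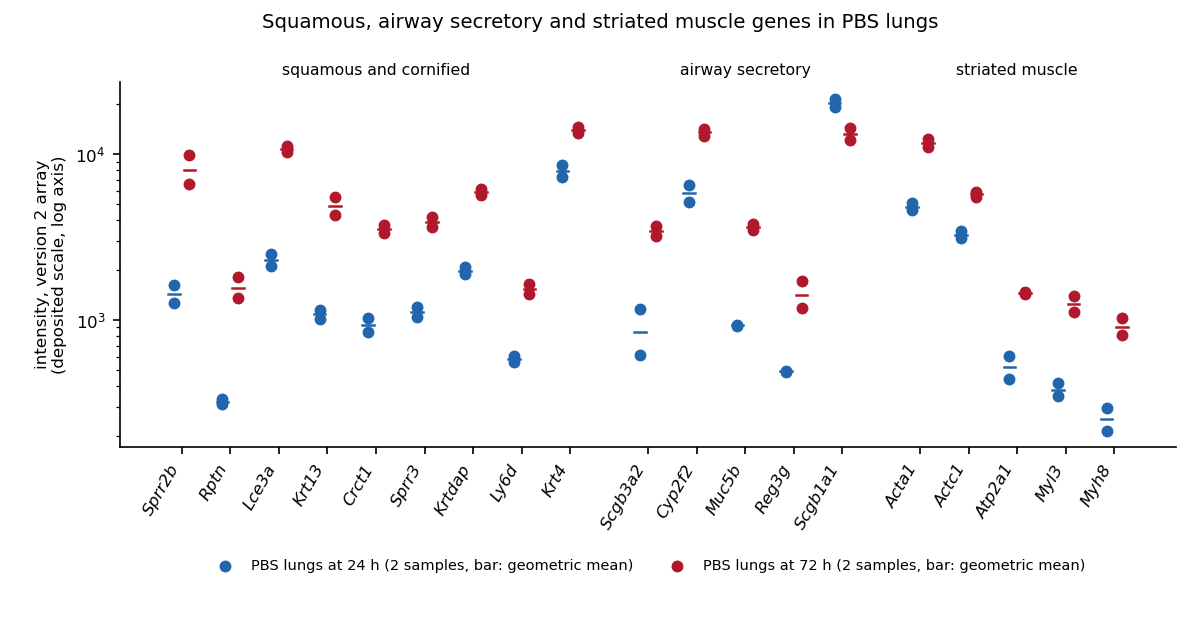
Version 2 intensity (log axis) of squamous, airway secretory and striated muscle genes in the 2 PBS samples of 24 h (blue) and the 2 of 72 h (red), with geometric means as bars. Both late samples lie above both early samples in every gene shown except Scgb1a1, where both lie below. Krt4 and Scgb1a1 were not called on version 2.

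Several secretory genes of the airway were called higher. Club cells of the small airways secrete secretoglobins and carry cytochrome P450 enzymes, and mucous cells of larger airways and glands make mucins and antimicrobial proteins. Muc5b, the main gel-forming mucin of healthy airways, read 925.1 and 934.1 at 24 h and 3799 and 3500 at 72 h, 3.92-fold (1.97 ± 0.19, adjusted p = 0.00362). Scgb3a2, a club cell secretoglobin, read 1167 and 614.1 against 3709 and 3202 (2.02 ± 0.30, adjusted p = 0.0144). Cyp2f2, the P450 typical of mouse club cells, read 6552 and 5174 against 14240 and 12940 (1.22 ± 0.15, adjusted p = 0.0244) and was at 1.68 ± 0.09 on the first version (adjusted p = 6.74e-05). Reg3g, an antimicrobial lectin, and Slpi, an inhibitor of leukocyte elastase, were called on both versions (1.53 and 1.28, and 1.10 and 1.42). Of 6 club cell genes measured, 2 were called higher, Scgb3a2 and Cyp2f2, and none lower (all genes: 0.236% and 0.179%). In that list 4 lay wholly higher and 2 wholly lower (all genes: 21.8% and 22.4%). The lower ones were Scgb1a1 and Aldh1a7, an aldehyde dehydrogenase (1401 and 1545 against 977.5 and 875.7; -0.67 ± 0.15, adjusted p = 0.172; first version 0.51). Of 11 mucous cell genes measured, 2 were called higher and none lower, and 8 lay wholly higher and 1 wholly lower, beside the same shares of all genes. The 8 included Bpifb1, a secreted bactericidal-family protein (0.81 ± 0.12, adjusted p = 0.0599), and Pigr, the carrier of IgA across epithelium (0.89 ± 0.14, adjusted p = 0.0653). Agr2, a mucin-folding enzyme, was at -0.47 ± 0.24 (adjusted p = 0.572).

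The array versions opposed each other for Scgb1a1, the most abundant club cell product. On version 2 it read 21700 and 19370 against 12250 and 14400 (-0.63 ± 0.21, adjusted p = 0.359). On the first version, after normalization, it read 36010 and 38030 against 94440 and 88340 (1.30 ± 0.11, adjusted p = 8.53e-04). Those late values are the top of the first-version array, where quantile normalization sets a value by its rank. The version 2 values of 24 h also lie at the top of their arrays, whose highest intensities were 22273 and 19372. Saturation was not tested for this gene or for Sftpc. No direction is given for this gene. Ciliated cell markers had no call among 12 measured (median -0.12), and neither had 18 endothelial, 10 smooth muscle or 21 matrix genes (medians -0.0197, 0.265 and 0.0991).

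Lymphocyte and immunoglobulin genes read higher at 72 h with few calls. Igkv6-23, a kappa light chain variable segment, read 3498 and 3121 against 11040 and 15640 (1.99 ± 0.20, adjusted p = 0.0110) and was called on the first version (2.56 ± 0.13). Ighv14-2, a heavy chain variable segment, was at least 1.62 ± 0.22 higher (adjusted p = 0.0364). Variable segments share sequence, so signals of related segments cannot be told apart. Of 13 B and plasma cell genes measured none was called, and all 13 lay wholly higher at 72 h, beside 21.8% of all genes. Ighm, the mu heavy chain, read 3141 and 2961 against 5844 and 6401 (SE of the log2 difference 0.20, adjusted p = 0.128), and Jchain, which joins secreted IgM and IgA, 483.7 and 448.4 against 926.6 and 2410 (1.68 ± 0.37, adjusted p = 0.167). Both were called on the first version, at 1.23 and 2.21. The B and plasma cell list was less uniform there: of 11 measured, 6 lay wholly higher and 2 wholly lower. The same sign was kept by 8 of these 11, and the median was 0.39. Of 12 T and NK cell genes none was called and 11 lay wholly higher. At 24 h 5 of the 12 were at the floor in both samples, beside 1 of the 13 B and plasma cell genes and 304 of 12267 over all genes. Such genes were tested only because both 72 h samples exceeded the floor, so the filter itself placed them wholly higher. All 12 were higher in PBS 72 h 1b than in 1a, and their median of 0.60 was 0.21 without 1b. Of 11 MHC class II genes none was called and 6 lay wholly higher. H2-Ea, an antigen-presenting alpha chain, read 2864 and 4071 against 5786 and 6836 (0.88 ± 0.18, adjusted p = 0.128; first version 1.03, adjusted p = 0.00654).

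Lists of macrophage, neutrophil and allergic lung genes had no call on version 2. Apoe, a lipid carrier that macrophages make and that is outside those lists, was called on both versions, with 4872 and 5899 against 10160 and 10410 (0.94 ± 0.13 and 0.69 ± 0.11), while its C probe set 169907_r_at lay on the other side without a call (3064 and 884.1 against 586.5 and 500.4, adjusted p = 0.360). Ltf, lactoferrin of neutrophils and glands, read 532.6 and 654.0 against 1399 and 1761 (1.41 ± 0.22, adjusted p = 0.0626; first version 1.63, adjusted p = 0.0319). None of 11 measured genes of the allergic lung was called. Retnla, a product of alternatively activated macrophages, read 715.4 and 569.7 against 1746 and 1240 (1.21 ± 0.25, adjusted p = 0.0860), and Chil3, a chitinase-like protein of the same cells, 1960 and 1736 against 4083 and 2826 (0.88 ± 0.20, adjusted p = 0.172; first version 0.90, adjusted p = 0.0201). Mmp12, macrophage elastase, was at 0.54 ± 0.16 (adjusted p = 0.272) and called at 1.80 on the first version. Its second probe set, 95338_s_at, was at least 0.77 ± 0.265 higher on version 2 (adjusted p = 0.360). On the first version that probe set was at -0.02 ± 0.30 (adjusted p = 0.993). The immediate early gene Fos was at -0.23 ± 0.22 (adjusted p = 0.796), and none of 24 such genes was called. Ribosomal proteins, respiratory chain subunits and cell cycle genes had medians of -0.06, 0.04 and 0.05 without a call among 29, 57 and 27 measured.

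**Figure D4:**
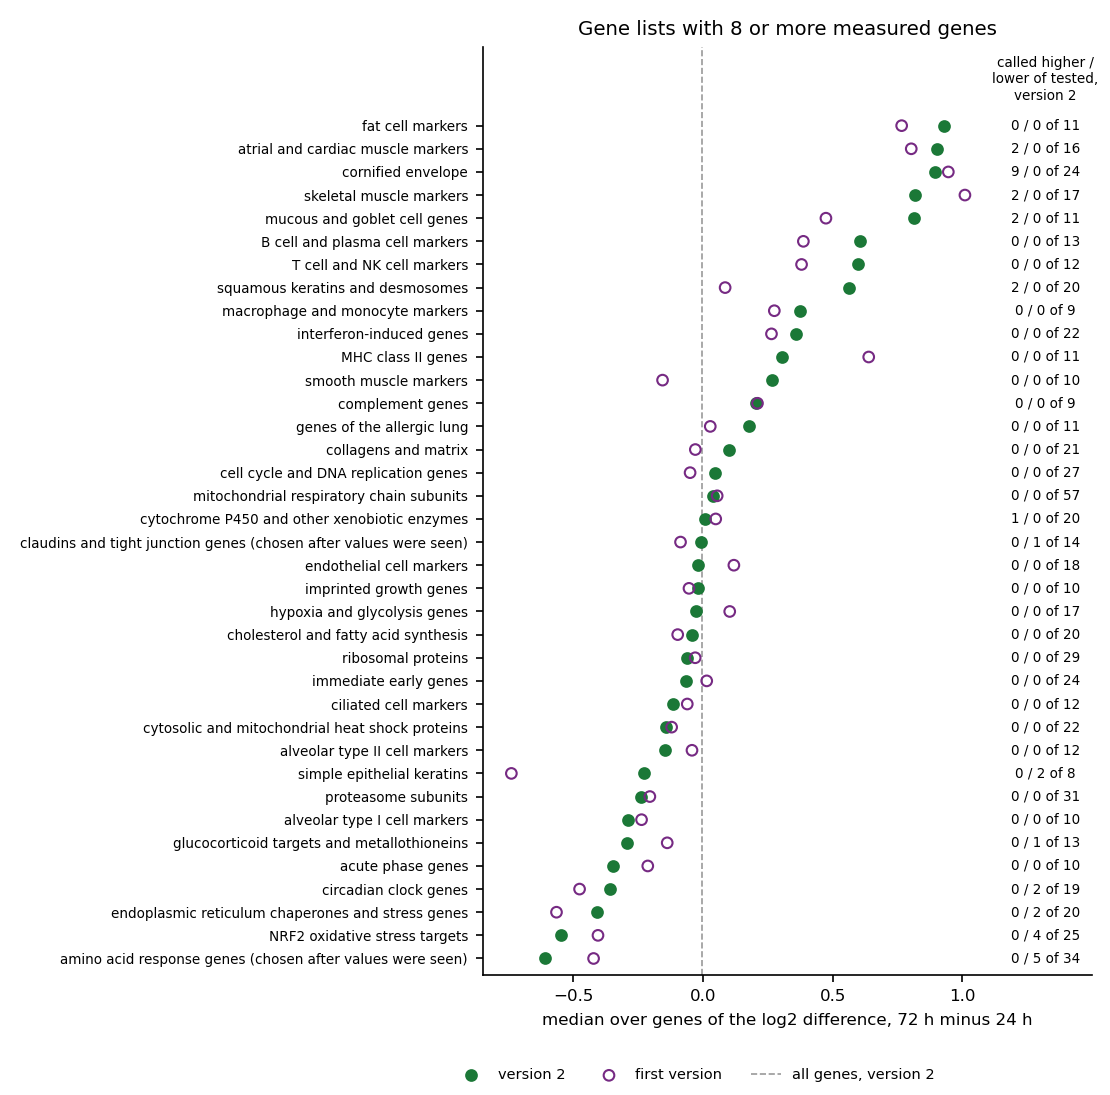
Median log2 difference, 72 h minus 24 h, of gene lists with 8 or more measured genes on version 2 (filled) and the first version (open), with the count called higher and lower on version 2 at the right. Lists of stress and simple-epithelial genes lie to the left of the median of all genes (dashed), and fat, muscle, cornified envelope and mucous lists to the right. Medians are descriptions without a test.

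Some calls were not shared by other probe sets of the gene or by the first version. Slc35a4, a member of a nucleotide sugar transporter family, went from below the floor (175.0 and 210.9) to 1483 and 3650, at least 2.71 ± 0.35 (adjusted p = 0.00711), but a second probe set, 169060_i_at, read 1346 and 1035 against 890.3 and 1147 (-0.22, adjusted p = 0.912), so no direction is given here either. Of 4 Bphl (hydrolase) probe sets 161851_r_at alone was called (2.01 ± 0.18, adjusted p = 0.00523), while 96231_at, above the floor in all samples, was at -0.17 (adjusted p = 0.843; first version 0.21) and 162248_f_at at -0.19 (adjusted p = 0.826), so no direction is given for this gene. Glipr2, a protein of the Golgi, was at least 1.95 ± 0.24 higher on version 2 (adjusted p = 0.0244) and at 0.12 ± 0.19 on the first version (adjusted p = 0.922). By contrast, probe set 92553_at, matched to Esd and its pseudogene, fell on both, from 10270 and 9584 to 2997 and 3120 on version 2 (-1.70 ± 0.11, adjusted p = 0.00233) and gave -1.75 ± 0.14 on the first version (adjusted p = 7.62e-04).

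Whether the time differences of PBS lungs differed from those of ragweed lungs was tested in the tables that hold all 4 groups, first-version A and version 2 B and C. The difference of the 2 time differences was called for 11 of 25970 probe sets (0.0424%), 10 of them with the larger value in PBS. Krt13 on the B array went from below the floor (159.6 and 252.7) to 2670 and 2879 in PBS lungs. In ragweed lungs it went from 1915 and 1485 to below the floor (315.9 and 281.1). For Krt13 the difference was at least 5.21 ± 0.49 (adjusted p = 0.00311). Its A probe set 100109_s_at gave 1.17 ± 0.19 without a call (adjusted p = 0.175). In ragweed lungs that probe set read 1280 and 1173 at 24 h and 1690 and 1601 at 72 h (0.42). The probe sets of Krt13 thus opposed each other on the direction in ragweed lungs. Probe set 101024_i_at of Sprr2a1, Sprr2a2 and Sprr2a3 rose by 3.68 in PBS lungs and was at -0.83 in ragweed lungs, where it was already at 13610 and 14050 at 24 h (difference 4.51 ± 0.29, adjusted p = 0.00140). Fam25c gave 2.83 ± 0.30, Acta1 2.32 ± 0.18, Krt4 1.76 ± 0.19 and Cyp2f2 1.45 ± 0.13 (adjusted p = 0.00560, 0.00362, 0.0213 and 0.00718). In ragweed lungs the first-version Cyp2f2 values were 12750 and 12080 at 24 h and 14750 and 14510 at 72 h, and PBS lungs went from 7449 and 8262 to 25280 and 25050.

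The opposite sign was seen for 101870_at of Ighm (difference -3.25 ± 0.34, adjusted p = 0.0200). This probe set rose by at least 1.65 in PBS lungs, from below the floor of 262.7 (57.72 and 26.86) to 814.0 and 829.5. In ragweed lungs it rose by 4.90, from 331.7 and 76.30, the latter below the floor, to 8602 and 8981. The floor thus enters the size of this difference, and its part was not tested. Other Ighm probe sets gave no call of a difference, such as 93583_s_at at -0.08 ± 0.17 (adjusted p = 0.950). The falls were not called different from ragweed: Gclc gave -0.96 (adjusted p = 0.516), Hspa5 -0.93 (adjusted p = 0.377), Krt8 -1.05 (adjusted p = 0.243), Cldn4 -1.69 (adjusted p = 0.612) and Zbtb16 0.21 (adjusted p = 0.931). A p that misses the threshold does not show that the groups behaved alike. Muc5b and Sprr2b lay just outside the threshold (2.11 and 1.83, adjusted p = 0.0504 for each). The calls rested on the 72 h PBS samples: without PBS 72 h 1a, or without 1b, limma called none of the differences (1745 and 1688 had an unadjusted p under 0.05). Without PBS 24 h 1b it called 6, and without any 1 ragweed sample 3. Across probe sets the PBS and ragweed time differences, which share no sample, correlated with r = 0.17 on A, 0.23 on B and 0.10 on C, over 6988, 7996 and 7460 probe sets.

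**Figure D5:**
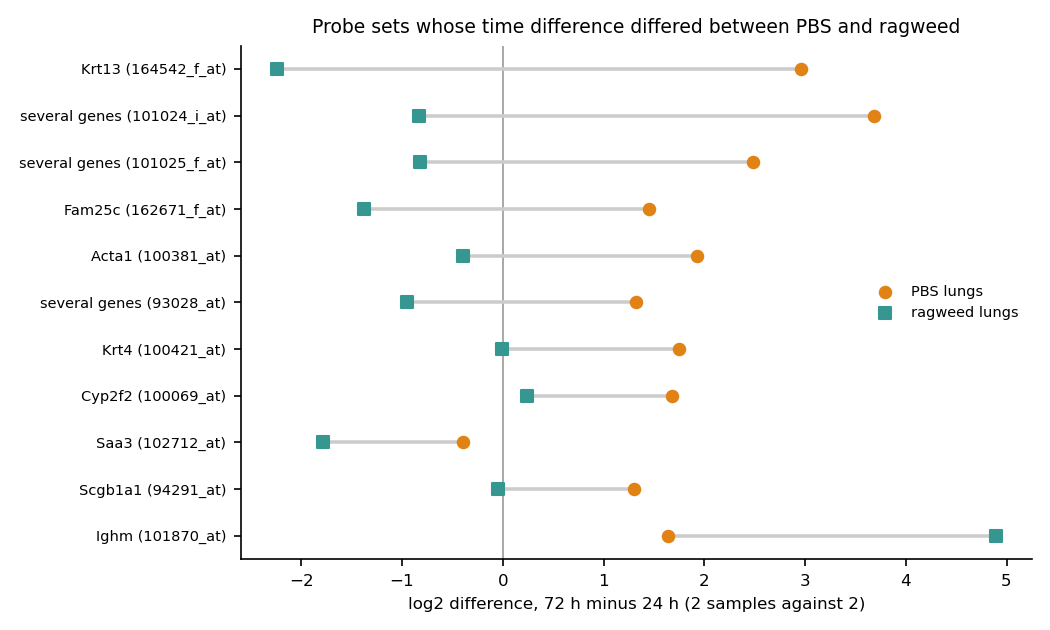
Log2 difference between 72 h and 24 h in PBS lungs (circles) and ragweed lungs (squares) for the 11 probe sets whose time differences were called different, on first-version A and version 2 B (n = 2 samples per group and time). In 10 of the 11 the PBS value is the larger, and in the Ighm probe set it is the smaller. Probe sets matched to several genes are given by ID.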

How the data were processed

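RNA from PBS and ragweed lungs was measured on Affymetrix U74 arrays. The deposited values are linear intensity, 1 per probe set and array, and the authors had brought version 2 to a 2% trimmed mean near 800. For the software and steps before that, the sources say nothing (not given in the sources used here). First-version PBS arrays were on unequal scales, as the deposited intensity values show. They were scaled to 800, quantile normalized on the log2 scale and limited to probe sets also on the version 2 array of the same letter. The floor was the 40th percentile of each table. Tested probe sets exceeded it on at least 2 of the 4 PBS arrays (for the difference from ragweed, on at least 2 arrays of any group). A gene at the floor in both 24 h samples could therefore be tested only if it lay wholly higher at 72 h. This held for 2 of 24 cornified envelope, 1 of 20 squamous, 1 of 17 skeletal, 2 of 16 cardiac and 1 of 11 MHC class II genes. Control probe sets and an array without a sample code, which repeats another, were left out.

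Fits used limma 3.58.1 (R 4.3.3) per table: 1 mean per group over all groups, eBayes with a mean-variance trend, and Benjamini-Hochberg over A, B and C pooled. Version 2 A holds 3 groups, so its fit had 3 residual degrees of freedom, and the others had 4. Equal values at the floor carry no spread, so errors there may be too small. The fits were tested on simulated data. Precision is limited by how few arrays each group has. The alternatives were other floors, filters, normalizations, variance models and adjustments, PBS arrays alone, the first version, a replicate block and each sample left out.

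Gene symbols are those of the platform annotation, brought up to date through gene IDs. Of 36701 version 2 probe sets, 29197 had 1 symbol, 724 several and 6780 none. A gene was read by 1 probe set, taken from A if possible, next from B, last from C, and by brightness within an array. Named genes were the 12 largest rises and 12 largest falls among called genes with separate groups, the 8 largest in each direction called on both versions, up to 5 members of each list with the smallest p, and 14 fixed genes. Genes outside that rule were chosen after their values were seen. The members and lists were chosen with earlier results of these data known. Promoters came from RefSeq (GRCm38.p6).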

Additional observations from a re-analysis of the deposited data

Results flagged for a closer look

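The time difference of PBS lungs differed from that of ragweed lungs by the test of the difference itself (limma, adjusted p under 0.05) in 11 probe sets. The difference, PBS minus ragweed on the log2 scale, was at least 5.21 for Krt13 (164542_f_at), a bound set by the floor. It was 4.51 for 101024_i_at and 3.31 for 101025_f_at, both matched to several Sprr2a genes. Further values were 2.83 for Fam25c, 2.32 for Acta1 and 2.27 for 93028_at, matched to H19 and Mir675. Krt4 gave 1.76, Cyp2f2 1.45, Saa3 1.40 and Scgb1a1 1.35. The difference was -3.25 for Ighm (101870_at), whose PBS rise is a bound set by the floor. For Scgb1a1 the first-version values, on which this test rests, oppose those of version 2. For Saa3, an acute phase protein, the PBS value was -0.39 and the ragweed value -1.79, so both were below 0. None of the 11 was called after either 72 h PBS sample was left out, and the cause was not tested.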

How the results depend on the processing

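On version 2, 66 probe sets were called. The count was 15 when 1 array over the floor was enough for testing, 28 with PBS arrays alone, 26 without the mean-variance trend and 163 with the mean of both versions. It ran from 11 to 91 when 1 sample was left out. The first version called 83, with 46, 29 and 26 under the first 3 of these settings and 27 to 64 when 1 sample was left out. The difference from ragweed was called for 11 probe sets, for 7 with the wider filter, 20 when all arrays had to exceed the floor, 6 without the trend, 17 with adjustment within each table, and 0 to 9 when 1 sample was left out. The causes were not tested, beyond the number of probe sets and samples that each setting changes. Scgb1a1 changed sign to 0.34 with the mean of both versions and to 1.30 with first-version A. Srxn1 (161090_i_at) ran from -0.76 to 0.31 when 1 sample was left out.

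The labels do not say that the codes 1a and 1b pair samples across times, and the difference of 1a and 1b at 24 h correlated with that at 72 h by -0.05 to 0.14 over the 6 tables. With the code as a replicate block, 57, 66 and 11 probe sets were called, and 37 of the 51 genes kept their call on version 2. In the fits without 1 sample, the lone sample is assumed to vary like the other groups. Signal over the floor limits the C arrays most, and low genes have bounds in place of folds.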
